A study of Saccharomyces cerevisiae with 54 samples.

Results

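The yeast spore is enclosed in a wall that diploid cells build around each meiotic product. Its inner layers are mannan and beta-glucan and its outer layers are chitosan and dityrosine, laid down in that order inside the prospore membrane. Ndt80, a transcription factor made at the end of recombination, switches on the middle genes, which serve the nuclear divisions and prospore membrane, and genes called late follow once spores form. The 10 genes described here were chosen by their systematic names and cover beta-glucan synthesis and trimming, genes with an SPS name, and SPO genes of spore formation. They are GSC2 (YGR032W), SPR1 (YOR190W), SPS2 (YDR522C), SPS22 (YCL048W), SPS4 (YOR313C), SPS100 (YHR139C), SPO19 (YPL130W), SPO73 (YER046W), SPO75 (YLL005C) and SPO77 (YLR341W), and they make up 10 of the 6679 genes listed.

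The cells were budding yeast of the SK1 background, a strain that sporulates quickly and in step. Growing cells in rich medium, cells at 0, 1.5, 3, 4.5, 6, 8 and 10 h in sporulation medium, spores, and a MATa/a strain that does not enter meiosis, taken at 4.5 h in the same medium, form a course of 10 states. Each state has 1 ribosome footprint library and 1 mRNA library, so its values carry no test and no SD, and 9 states were also used as total RNA. A parallel set of meiotic cells has 2 footprint libraries at each of 1.5, 3 and 6 h and 2 mRNA libraries at both 1.5 and 6 h. The 2 mRNA columns at 3 h are identical in every gene and were counted as 1 library. Growing cells and 0 h have 1 parallel footprint library each. The third set is mRNA of strain brun95, in which Ndt80 can be induced: 4 libraries without induction (4, 5.5, 6 and 7.75 h) and 5 with it (5.75, 6, 6.5, 7 and 7.75 h). The labels do not say how Ndt80 was induced, and the file sets its hour of 0 at 5.5 h. The labels do not tell whether replicates are separate cultures. In the parallel set, the p-values therefore speak only of the spread between these libraries, which may be technical. No hour of the induction set has replicates in one arm. Its p-values rest on how libraries of different hours depart from the fit, and no spread between repeats enters them.

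Values are RPKM, the authors' read counts scaled by gene length and library size. The reads recovered from them number about 2275330 to 16967800 per library in the course footprints, 8697920 to 24724200 in the course mRNA, 1031040 to 17695700 in the parallel set and 2622580 to 8023480 in the induction set. The RPKM values of the 0 h course mRNA library sum to 8894795, while those of the other 9 states sum to between 2953567 and 5044039, so its levels are given with that difference in view. The mRNA library labelled MATa/a correlated over 6012 genes with growing cells at r = 0.967 and with meiotic cells at 4.5 h at 0.543, while its footprint library correlated with spores at 0.921, with 1.5 h at 0.918 and with growing cells at 0.744. Of the mating-type genes, STE2 mRNA was 568 RPKM in growing cells, 488 in the MATa/a library and 58.1 in meiotic cells at 4.5 h. STE3 mRNA was 1.43, 0.825 and 135 RPKM in the same order. Whether growing and meiotic cells differ in mating type was not tested. For SPS22, SPS100 and SPO73, the parallel table lists values in another gene order than its names in all but the growing and 0 h footprint columns. Their parallel values were read by position. In bulk libraries, fewer cells in a stage and less RNA per cell cannot be told apart.

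Of the 4 genes with an SPS name, SPS100 alone had its highest mRNA in spores and its highest footprints at 10 h. SPS2 and SPS22 were highest at 6 h in both assays. SPS4 lay between these, with a log2 mRNA change of 6.48 from 3 to 4.5 h and its highest value at 8 h in both assays. The genes fell into 3 patterns. SPR1, SPS2, SPS22, SPS4, SPO19, SPO73, SPO75 and SPO77 were low up to 3 h, high from 4.5 to 8 h and lower in spores. They are called the 8 middle-timed genes below. GSC2 was already high at 0 h and varied less than the others after that. SPS100 mRNA was high at 0 h, went down to its lowest meiotic value at 8 h and was highest in spores.

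**Figure D1:**
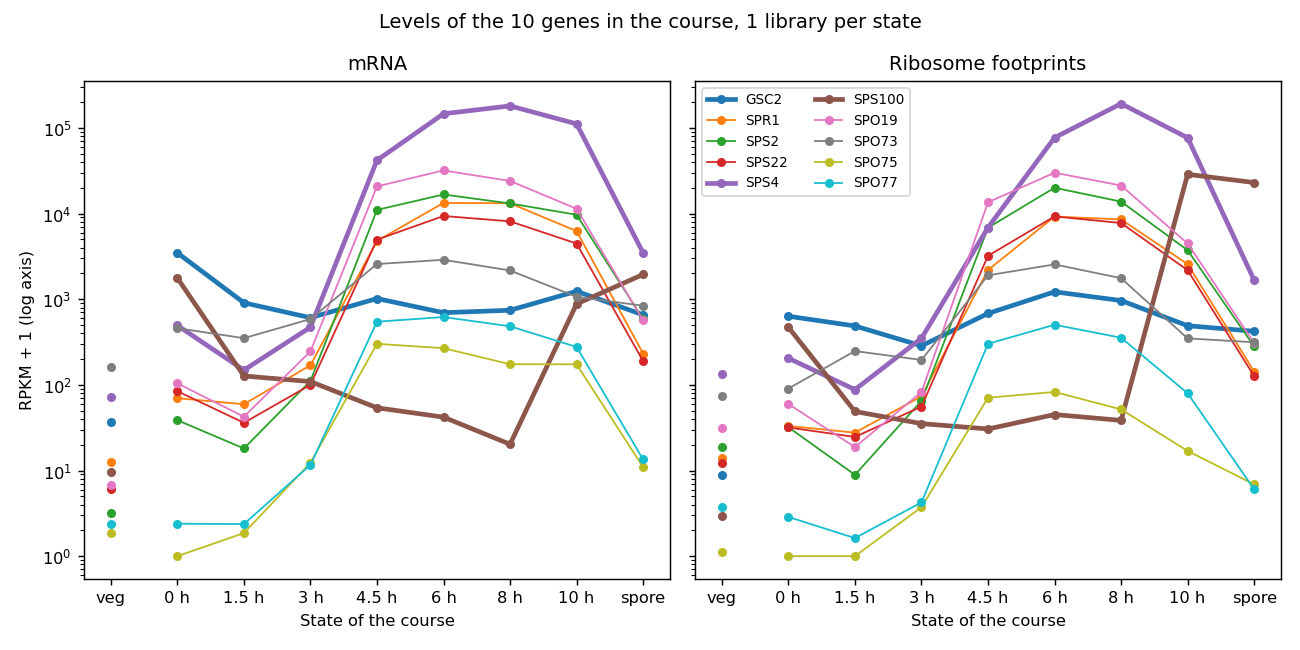
RPKM plus 1 of the 10 genes on a log axis in growing cells (veg), at 0 to 10 h in sporulation medium and in spores, with mRNA on the left and ribosome footprints on the right, 1 library per point. Of the thick lines, SPS4 tops all others at 8 h, GSC2 stays between 607 and 1238 mRNA RPKM from 1.5 h on, and SPS100 is at 37.5 footprint RPKM at 8 h and 28718 at 10 h.

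GSC2 encodes a catalytic subunit of 1,3-beta-glucan synthase, the alternative to FKS1 used in stress and sporulation. Its mRNA was 35.4 RPKM in growing cells, 3477 at 0 h, 908 at 1.5 h, 607 at 3 h, 1018 at 4.5 h, 696 at 6 h, 743 at 8 h, 1238 at 10 h and 656 in spores. Its footprints were 7.91 RPKM in growing cells, 632 at 0 h, 285 at 3 h, 681 at 4.5 h, 1219 at 6 h, 964 at 8 h and 422 in spores. Both assays thus show little GSC2 in growth, a high level before meiosis, a low point at 3 h and a second high period, in footprints at 6 h. As a share of the summed RPKM of its library, GSC2 mRNA was 0.0391% at 0 h, 0.0307% at 1.5 h and 0.0350% at 10 h, so its lead at 0 h is small once the scale of that library is taken out. FKS1, the synthase subunit of growing cells, had 398 mRNA RPKM in growth, 361 at 0 h, 248 at 3 h, 153 at 4.5 h, 85.8 at 8 h, 244 at 10 h and 251 in spores. FKS1 was thus the higher of the pair per length in growing cells and GSC2 at each state from 0 h to spore, while both were lower at 3 h than at 0 h and higher at 10 h than at 8 h. GSC2 and FKS1 are close in sequence, and since the counting is not described, reads shared between them could be split in either direction.

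SPR1 encodes a sporulation-specific exo-1,3-beta-glucanase, which trims glucan. Its mRNA was 11.6 RPKM in growing cells, 68.9 at 0 h, 58.4 at 1.5 h, 169 at 3 h, 4792 at 4.5 h, 13323 at 6 h, 13192 at 8 h, 6246 at 10 h and 231 in spores. Its footprints were 72.5 RPKM at 3 h, 2192 at 4.5 h, 9232 at 6 h, 8539.8 at 8 h and 142 in spores. SPR1 was thus late among the middle-timed genes, with 36.0% of its highest mRNA and 23.7% of its highest footprint value at 4.5 h.

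SPS2 and SPS22 encode related surface proteins that together organise the beta-glucan layer of the spore wall. SPS2 mRNA was 17.1 RPKM at 1.5 h, 110.2 at 3 h, 11042 at 4.5 h, 16709 at 6 h, 13119 at 8 h, 9689.9 at 10 h and 582 in spores. SPS22 mRNA was 35.1, 99.0, 4962, 9370.3, 8118, 4469 and 189 RPKM in the same states. The pair moved alike in mRNA and both had their highest value at 6 h, with SPS2 at 66.1% and SPS22 at 53.0% of it by 4.5 h. In footprints, SPS2 was 63.9 RPKM at 3 h, 6839 at 4.5 h and 20026 at 6 h, and SPS22 was 54.8, 3212 and 9271. SPS2 lies next to SPS1, the kinase of spore formation, whose mRNA was 3773 RPKM at 4.5 h and 10742 at 6 h.

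SPS4 is a gene first found by its expression during sporulation. Its mRNA was 70.3 RPKM in growing cells, 148 at 1.5 h, 469.9 at 3 h, 41913 at 4.5 h, 146355 at 6 h, 180828 at 8 h, 111603 at 10 h and 3483 in spores. Footprints were 133 RPKM in growing cells, 87.1 at 1.5 h, 349 at 3 h, 6872 at 4.5 h, 76931 at 6 h, 192066 at 8 h, 76713 at 10 h and 1669 in spores. The parallel footprint library of growing cells had 7.55 RPKM of SPS4 (23 reads), so its footprint level in growth differs between libraries. SPS4 was the most abundant of the 10 genes per length from 6 to 8 h in both assays and the latest of the 8 middle-timed genes. It took up 5.85% of all recovered mRNA reads and 6.16% of all recovered footprints at 8 h. The 10 genes together took up 0.161% of mRNA reads at 3 h, 8.14% at 8 h and 0.35% in spores.

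SPO19 encodes a meiosis-specific protein with a membrane anchor. Its mRNA was 41.5 RPKM at 1.5 h, 245 at 3 h, 20764 at 4.5 h, 31911 at 6 h, 24048 at 8 h, 11382 at 10 h and 565 in spores, and its footprints were 81.4 RPKM at 3 h, 13542 at 4.5 h and 30010.4 at 6 h. SPO73, needed to shape the prospore membrane, had the highest mRNA level of the 10 in growing cells. Its mRNA was 160.04 RPKM in growing cells, 349.8 at 1.5 h, 586 at 3 h, 2575 at 4.5 h, 2885 at 6 h, 2165 at 8 h and 838 in spores. SPO73 footprints were 194 RPKM at 3 h, 1899.6 at 4.5 h, 2548 at 6 h, then 348 at 10 h. SPO75 and SPO77, both needed for spore formation, were the scarcest of the 8 middle-timed genes per length. SPO75 mRNA was 0.862 RPKM at 1.5 h (7 reads), 11.3 at 3 h, 301 at 4.5 h, 267 at 6 h and 9.96 in spores, and SPO77 mRNA was 1.37 RPKM at 1.5 h (6 reads), 10.6 at 3 h, 545 at 4.5 h, 619 at 6 h and 12.5 in spores. SPO75 was the one gene of the set with its highest mRNA at 4.5 h. SPO77 lies next to FKS1, whose mRNA did not follow it.

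SPS100 encodes a protein of spore wall maturation. Its mRNA was 8.74 RPKM in growing cells, 1765 at 0 h, 126 at 1.5 h, 108 at 3 h, 53.0 at 4.5 h, 41.0 at 6 h, 19.3 at 8 h, 879.5 at 10 h and 1945 in spores. Its footprints were 1.91 RPKM in growing cells, 469 at 0 h, 47.9 at 1.5 h, 34.3 at 3 h, 29.5 at 4.5 h, 44.0 at 6 h, 37.5 at 8 h, 28718 at 10 h and 23036 in spores. SPS100 therefore had 2 high periods in mRNA, before and after the divisions. Its footprints were also higher at 0 h than from 1.5 to 8 h, but the 0 h value was 1.63% of the highest, at 10 h. The parallel footprint library of 0 h had 104 RPKM of SPS100 (34 reads). As a share of the summed RPKM, its mRNA was 0.0198% at 0 h, 0.000499% at 8 h, 0.0248% at 10 h and 0.0517% in spores. In total RNA its 0 h value was 11.1% of that of spores and its 10 h value 63.8%, against 90.7% and 45.2% in the mRNA libraries, so the size of the 0 h level differs between RNA assays. An antisense RNA is annotated across SPS100, and since the strand counted is not given, the RNA reads of SPS100 and of that RNA cannot be told apart.

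As counts, 7 of the 10 genes were at least 8-fold higher in mRNA at 4.5 h than at 3 h, while 2.18% of 6012 genes were. The 3 that were not are GSC2, SPS100 and SPO73, whose mRNA log2 changes were 0.74, -1.02 and 2.13. In footprints 8 of the 10 were, SPO73 included, while 2.43% of 5631 genes were. From 8 to 10 h, SPS100 alone among the 10 was at least 8-fold higher, in mRNA with a background of 0.582% of genes and in footprints with 0.32%. In spores, 7 of the 10 had at least 8-fold less mRNA than at 8 h (2.73% of genes) and 6 had at least 8-fold fewer footprints (4.39% of genes). The one gene of the 10 at least 8-fold higher in spores was again SPS100, where 1.21% of genes were in mRNA and 0.994% in footprints. SPO73 (log2 changes of -1.37 in mRNA and -2.49 in footprints) and GSC2 (-0.18 and -1.19) changed least. SPO75 had log2 changes of -3.99 in mRNA and -2.91 in footprints.

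Over the 8 states from 0 h to spore, the log2 mRNA values of the 8 middle-timed genes correlated pairwise with Pearson's r from 0.913 to 0.994 (28 pairs). GSC2 correlated with the other genes at -0.44 to -0.22 except with SPS100 at 0.52, and SPS100 with the 8 at -0.58 to -0.39. These are descriptions over 8 libraries that all genes share. Among 5749 genes that reached 50 mRNA RPKM, the genes outside the set most like SPS4 were YGL230C (r = 0.997), YPR078C (0.996) and YPR077C (0.996). YPR078C had 64.0 mRNA RPKM at 3 h, 10291 at 4.5 h and 28578 at 8 h. Most like SPS100 were UTP22, a ribosome assembly factor (0.941), SED1 (0.940) and HSP150 (0.939), both cell wall mannoproteins. SED1 mRNA was 85769 RPKM at 0 h, 4616 at 8 h and 54362 in spores. Its footprints were 11292 RPKM at 8 h and 21274 at 10 h, so SED1 lacks the footprint step of SPS100.

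**Figure D2:**
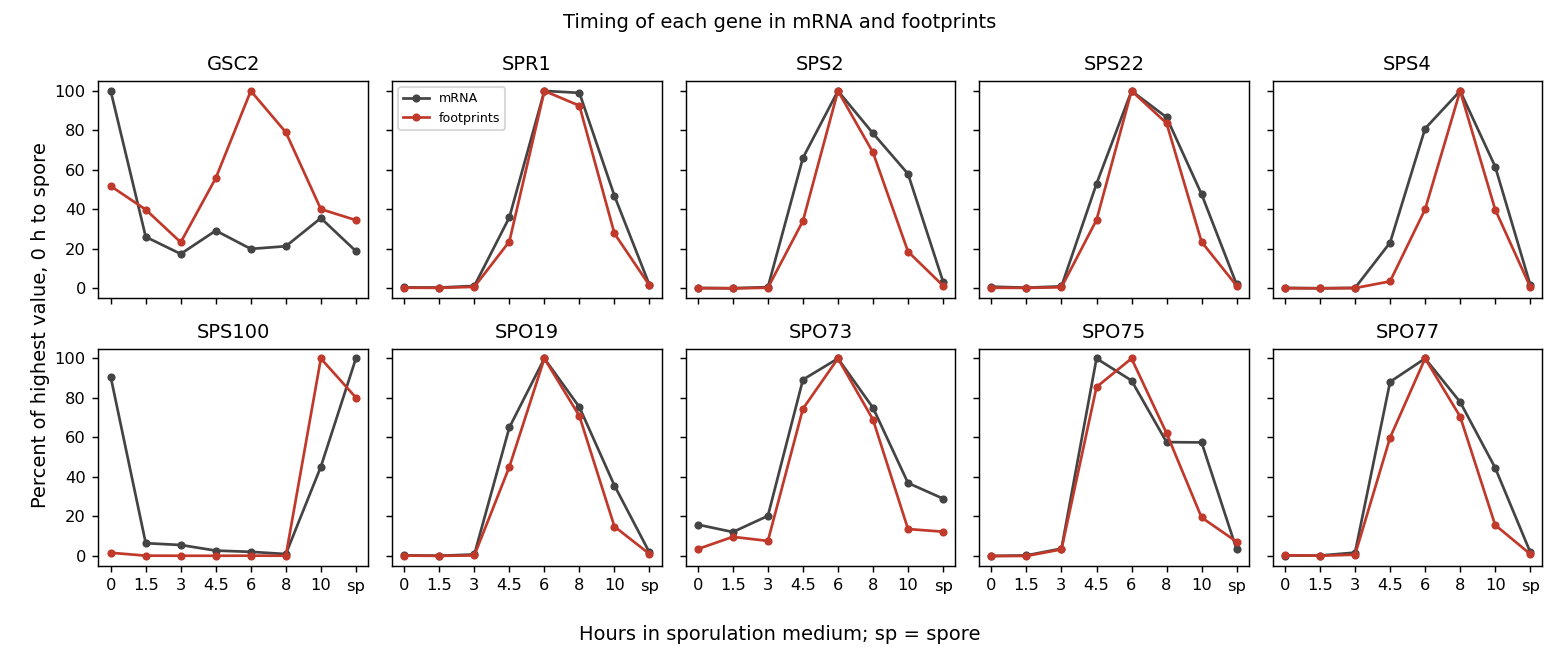
Each gene's mRNA (grey) and footprints (red) as percent of its own highest value from 0 h to spore, 1 library per point. At 4.5 h the red line lies under the grey one for all 8 middle-timed genes, with SPS4 at 3.58% in footprints and 23.2% in mRNA. At 0 h SPS100 is at 90.7% of its highest mRNA value and 1.63% of its highest footprint value.

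Total RNA, used here only as each gene's share of its own highest value, gave nearly the same order. At 4.5 h SPO75 was at 100%, SPO77 at 94.7%, SPO73 at 71.4%, SPS2 at 60.8%, SPO19 at 57.0%, SPS22 at 48.5%, SPR1 at 26.2% and SPS4 at 19.9%. In mRNA the order at that hour was SPO75, SPO73, SPO77, SPS2, SPO19, SPS22, SPR1 and SPS4, which differs in the places of SPO73 and SPO77. GSC2 total RNA was at 50.9% at 0 h, 36.9% at 3 h and 100% at 8 h, so its highest state differs between RNA assays. With 1 library per state, neighbours in this order that lie a few percent apart cannot be ranked.

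Footprints of the 8 middle-timed genes were at lower shares of their highest values than mRNA at 4.5 and 10 h, with 1 library per state. Genes outside the set, among them CLB3 and CDA1, had the same pattern, and SHC1 went the other way at 4.5 h. How many middle or spore wall genes outside the set have it was not counted. Whether it is particular to these 8 was not tested. For 8 of 8 middle-timed genes, the footprint value at 4.5 h was a smaller share of its highest value than the mRNA value, which held for 30.0% of 5621 genes. The same was so for 8 of 8 at 10 h and for 36.3% of all genes. Of 6012 genes, 49.4% had their highest mRNA at 0 h, in the library with the larger RPKM sum. A high 0 h value lowers a gene's mRNA share at every later state, so both backgrounds depend on that library. What they would be without it was not tested. The 8 genes themselves had their highest values from 4.5 to 8 h. At 10 h, SPS2 kept 58.0% of its highest mRNA and 18.6% of its highest footprint value, SPO75 57.5% and 19.5%, and SPO77 44.6% and 15.7%. Translation efficiency, here log2 footprints minus log2 mRNA relative to the median of 5621 genes, was for SPS4 -2.07 at 4.5 h, -0.53 at 6 h and 0.45 at 8 h. At 4.5 h 5.18% of genes lay lower than SPS4 and at 8 h 71.3% did. At 6 h the relative value was 1.53 above that at 4.5 h for SPS4 and 1.24 above it for GSC2, and 98.5% and 97.4% of genes had smaller differences. It was higher at 6 h for the other 8 genes as well, by 0.11 for SPO73 to 0.80 for SPS2, and 58.1% of genes lay under the value of SPO73. SPO75 was low throughout this period, at -1.55, -1.30, -1.39 and -2.72 at 4.5, 6, 8 and 10 h.

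The largest value of translation efficiency in the set was that of SPS100. Relative to all genes it was -0.88 at 1.5 h, -0.28 at 4.5 h, 0.49 at 6 h, 1.29 at 8 h, 5.67 at 10 h and 4.44 in spores. Of all genes, 99.98% lay lower at 10 h and 99.8% in spores. The GSC2 value was 1.20 at 6 h and -0.69 at 10 h, and that of SPO19 0.31 and -0.70. These are ratios of 1 library to another, and the SPS100 mRNA value may include the antisense RNA.

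In the non-meiotic MATa/a strain at 4.5 h, footprints of the 8 middle-timed genes were far under those of meiotic cells at that hour. SPO19 had 36.7 RPKM against 13542, SPS2 18.3 against 6839, SPR1 15.3 against 2192 and SPO73 366 against 1899.6. GSC2 had 407 RPKM against 681 and SPS100 139 against 29.5. The mRNA library with that label had 22.8 RPKM of GSC2 and 9.09 of SPS100, near the growing cells (35.4 and 8.74), the state with which that library correlates, so no translation efficiency is drawn from it.

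**Figure D3:**
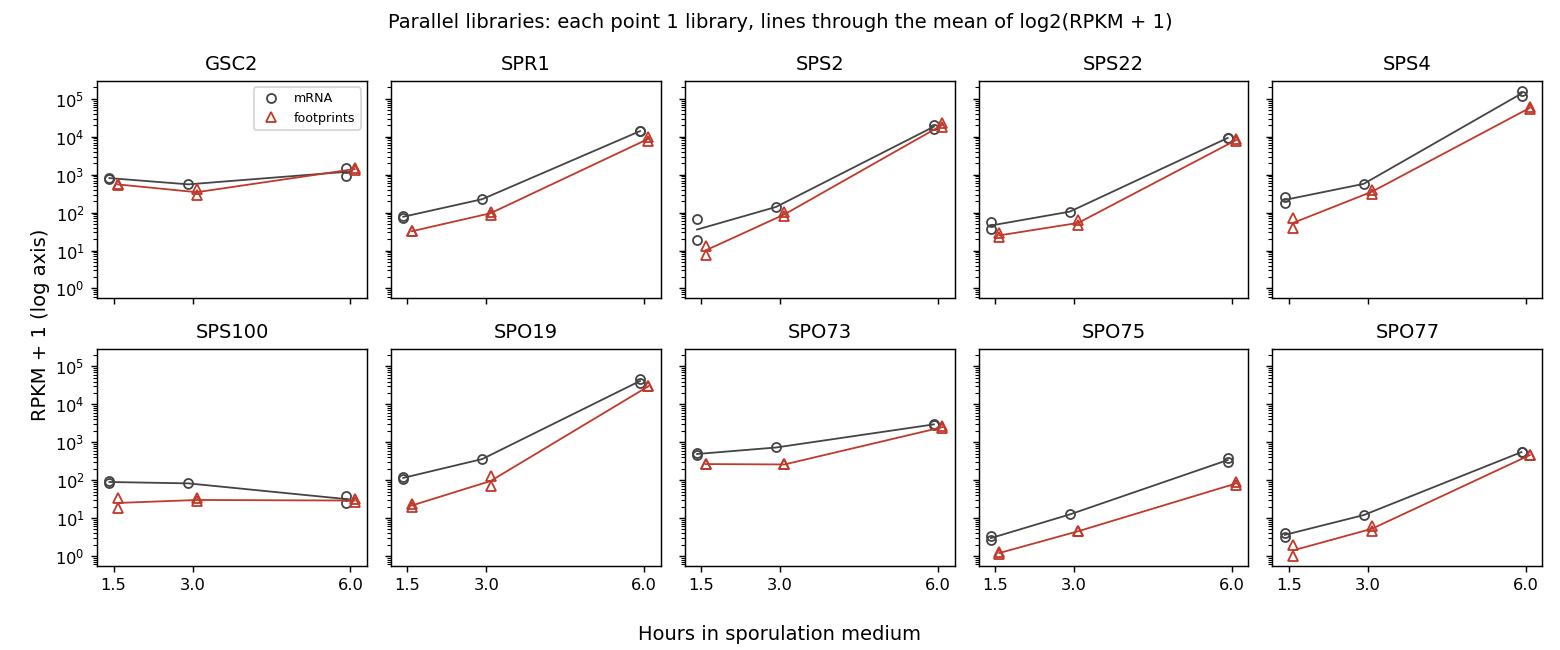
RPKM plus 1 on a log axis in the parallel libraries at 1.5, 3 and 6 h, each symbol 1 library (circles mRNA, triangles footprints), lines through the mean of log2(RPKM + 1). At 6 h both libraries of each assay lie above those of 3 h for every gene except SPS100. The share of all genes for which this holds is not given.

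The replicated parallel libraries ask which changes hold against the spread between libraries, with both comparisons sharing the 3 h libraries. From 1.5 to 3 h some genes had begun to rise. In mRNA, 3 of 10 rose and 0 fell by limma on log2(RPKM + 1), adjusted over 5967 genes at 0.05, where 3.03% of all genes rose and the median gene moved by 0.11. SPR1 mRNA was 72.0 and 81.5 RPKM at 1.5 h and 225 at 3 h, a log2 change of 1.54 (SE 0.209, limma adjusted p = 0.0119). SPO19 mRNA was 123 and 105 RPKM at 1.5 h and 359 at 3 h, a change of 1.65 (SE 0.328, limma adjusted p = 0.033). SPO75 mRNA was 2.36 and 1.61 RPKM at 1.5 h and 11.5 at 3 h, a change of 2.07 (SE 0.382, limma adjusted p = 0.0252), though the lower value is 3 reads. In each of these genes the 3 h library lies above both 1.5 h libraries. SPS22 (1.22, limma adjusted p = 0.0599), SPO77 (1.73, 0.0599), SPS4 (1.41, 0.0767), SPO73 (0.57, 0.0862) and SPS2 (1.98, 0.11) did not pass, nor did GSC2 (-0.55, 0.339) and SPS100 (-0.12, 0.911). Leaving out 1 library of the fit at a time, the number that rose ranged from 1 to 5, with 1 without either 6 h footprint library or without replicate 2 of mRNA at 1.5 h, and 5 without either 1.5 h footprint library.

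In footprints, 7 of 10 rose from 1.5 to 3 h, where 3.97% of all genes rose and the median gene moved by -0.07. SPS2 footprints were 12.5 and 6.43 RPKM at 1.5 h and 78.3 and 100.2 at 3 h, a log2 change of 3.16 (SE 0.511, limma adjusted p = 0.0109). SPS4 footprints were 72.2 and 38.2 RPKM, then 313 and 404, a change of 2.74 (SE 0.316, limma adjusted p = 0.0023). SPO19 (2.15), SPR1 (1.58) and SPS22 (1.09, limma adjusted p = 0.031) rose as well, each with both 3 h libraries above both 1.5 h libraries. SPS22 did not pass with no filter on low values (limma adjusted p = 0.0518), and its change ranged from 0.87 to 1.32 with 1 library left out. SPO75 (1.91) and SPO77 (1.90) also passed, but their 1.5 h libraries hold 1 and 1, and 2 and 0 reads, so the size of these changes depends on the pseudocount. With a pseudocount of 5, SPO75 had 0.71 and did not pass (limma adjusted p = 0.0818). SPO73 (-0.04, limma adjusted p = 0.903), GSC2 (-0.68, 0.109) and SPS100 (0.26, 0.643) did not pass. Without replicate 1 or without replicate 2 of footprints at 3 h the count was 3, and 1.14% and 0.87% of all genes were called in either direction, against 7.81% with every library.

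From 3 to 6 h the rise was large. In mRNA 9 of 10 rose, where 9.47% of all genes rose, and 1 fell, where 49.1% of all genes fell and the median gene moved by -0.81. SPS4 mRNA was 571 RPKM at 3 h and 117544 and 161950 at 6 h, a log2 change of 7.91 (SE 0.387, limma adjusted p = 1.26e-06). SPS2 mRNA was 139.9 RPKM at 3 h and 20693 and 16494 at 6 h, a change of 7.03 (SE 0.626). SPO19, from 359 to 36904 and 46183 RPKM, rose by 6.84 (SE 0.328). These 3 genes had the largest mRNA rises of the set. SPS22, from 105 to 9310.3 and 9290.1 RPKM, rose by 6.46 (SE 0.302), and SPR1, from 225 to 13860.4 and 14338 RPKM, by 5.97 (SE 0.209). SPO77, from 11.0 to 556 and 543 RPKM, rose by 5.52 (SE 0.430), and SPO75, from 11.5 to 389 and 293 RPKM, by 4.76 (SE 0.382). In all of these the 6 h libraries lie far above the 3 h library, and between the 6 h libraries SPS4 and SPO75 differ most. Smaller rises were those of SPO73, from 726 to 2875 and 3039 RPKM (2.02, SE 0.164), and GSC2, from 555 to 1507 and 935 RPKM (1.10, SE 0.293, limma adjusted p = 0.0112). The 6 h course library of GSC2, at 696 RPKM, lay under both of these. SPS100 mRNA was 81.2 RPKM at 3 h and 24.6 and 38.2 at 6 h, a change of -1.38 (SE 0.399, limma adjusted p = 0.016). With each library centred on its median, the SPS100 change was -0.77 and no longer passed (limma adjusted p = 0.196), and without mRNA 6 h replicate 1 it was -1.07 (0.0744).

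In footprints, 9 of 10 rose from 3 to 6 h, where 15.6% of all genes rose and the median gene moved by -0.45. SPO19 footprints were 69.5 and 127 RPKM at 3 h and 30159.8 and 29721 at 6 h, a log2 change of 8.30 (SE 0.268, limma adjusted p = 4.13e-08). SPS2 rose by 7.84 (SE 0.511), SPS4 by 7.34 (SE 0.316), SPS22 by 7.26 (SE 0.247), SPR1 by 6.52 (SE 0.171) and SPO77 by 6.45 (SE 0.351). SPR1 footprints went from 86.4 and 105 RPKM to 7791 and 10018, SPS4 from 313 and 404 to 54442 and 61787, and SPO77 from 5.16 and 3.46 to 451 and 466. SPO75 rose by 4.18, SPO73 by 3.26 and GSC2 by 2.03 (SE 0.239, limma adjusted p = 0.000185). GSC2 footprints were 407 and 290.2 RPKM at 3 h and 1329.6 and 1487 at 6 h, so the groups do not overlap. SPS100 footprints were 26.4 and 31.9 RPKM at 3 h and 26.1 and 30.0 at 6 h, with overlapping groups and a change of -0.05 (95% interval -0.79 to 0.69, limma adjusted p = 0.928).

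**Figure D4:**
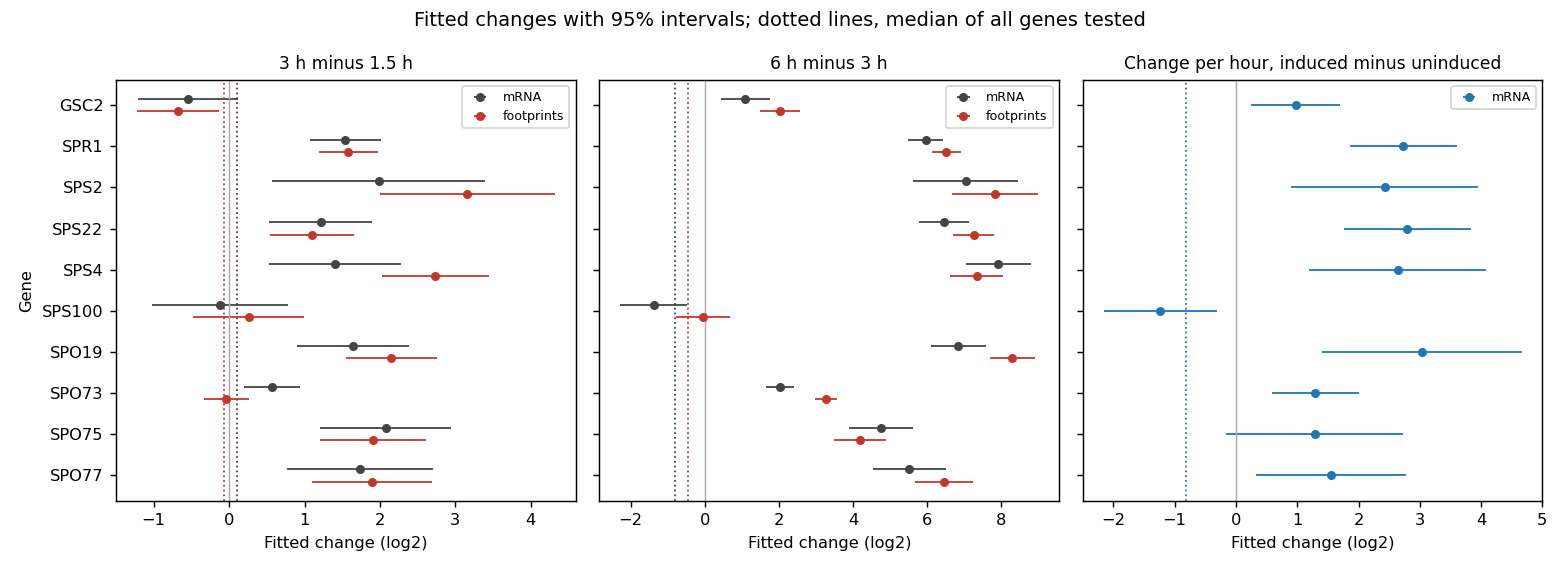
Fitted log2 changes of the 10 genes with 95% intervals, for 3 h minus 1.5 h and 6 h minus 3 h in mRNA (grey) and footprints (red), and for the change per hour with Ndt80 induced minus that without (blue). Dotted lines give the median of all genes tested. The 6 h intervals of SPS100 lie under or across 0 and those of the other genes above it.

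The test of footprint change against mRNA change between 3 and 6 h called 1 of the 10, SPO73, where 1.14% of all genes were called upward and the median gene moved by 0.33. Its footprints were 259 and 258 RPKM at 3 h and 2381 and 2601 at 6 h, against 726 and then 2875 and 3039 in mRNA. The difference was 1.24 on the log2 scale (SE 0.211, limma adjusted p = 0.0336). The call was lost with libraries centred, and without any one of 5 libraries: either 3 h footprint library, either 6 h footprint library or mRNA 6 h replicate 2. SPO19 (1.46, limma adjusted p = 0.118), SPS100 (1.33, 0.201) and GSC2 (0.93, 0.218) did not pass. For SPS4 the difference was -0.57 (95% interval -1.70 to 0.56).

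**Figure D5:**
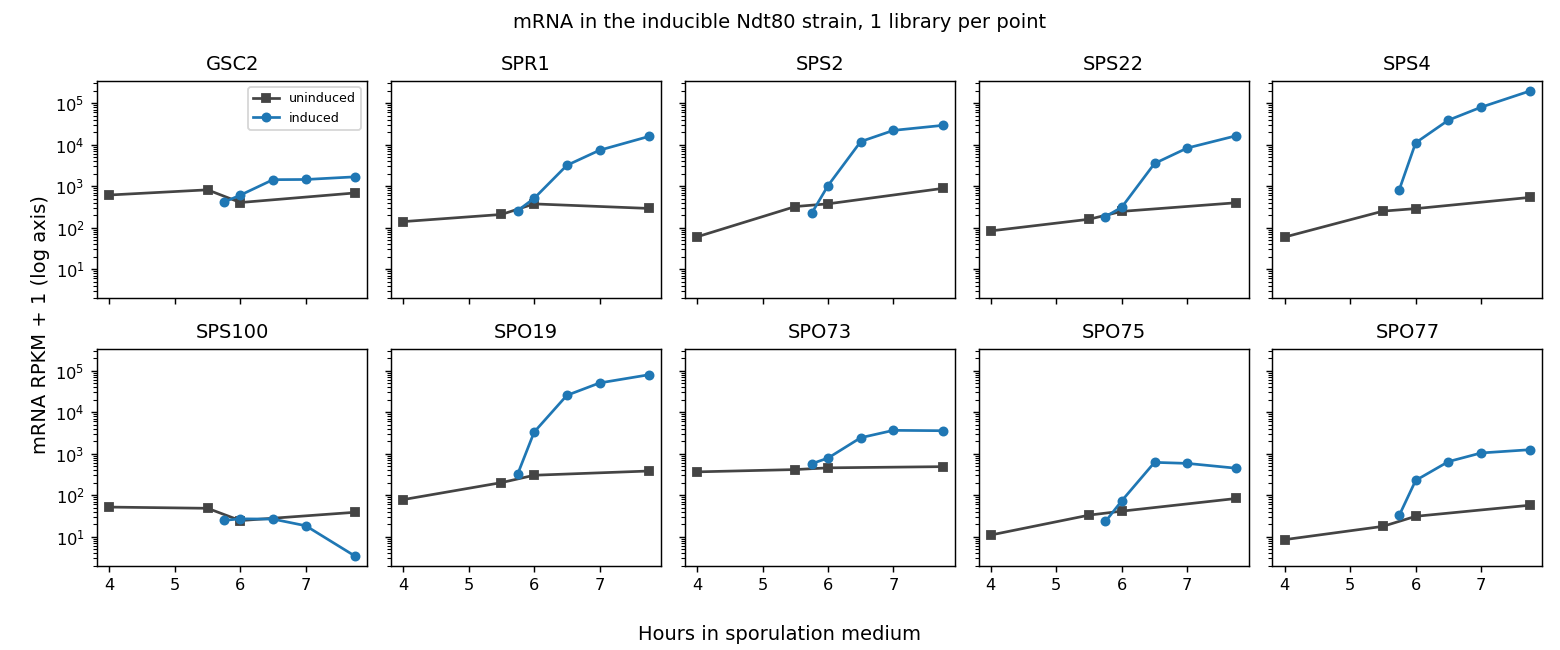
mRNA RPKM plus 1 on a log axis by hour in the inducible Ndt80 strain, 1 library per point, with 4 uninduced libraries (squares) and 5 induced ones (circles). From 6.5 h on, 9 genes lie above every uninduced library, and SPS100 is at 2.44 RPKM at 7.75 h. The share of all genes above every uninduced library is not given.

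The induction set asks whether these genes follow Ndt80. NDT80 mRNA itself was 45.0 to 79.8 RPKM in the 4 uninduced libraries and 3110.0, 5626, 5377, 3774 and 1430.1 in the induced ones, 70.5-fold above the uninduced library at 6 h. At 5.75 h, the first induced hour, SPS4 had 822 RPKM, above its 4 uninduced libraries (58.5 to 536). SPR1 (258), SPS2 (220.2), SPS22 (183), SPO75 (22.3), SPO77 (31.9) and SPO19 (328) lay within their uninduced ranges at that hour, and SPO73 (573) lay above its range of 365 to 487. At 6 h, where both arms have a library, SPS4 was 11069 RPKM with induction and 287 without, a ratio of 38.6. At that hour the ratio was 11.0 for SPO19, 7.52 for SPO77, 2.74 for SPS2, 1.80 for SPO75, 1.72 for SPO73, 1.51 for GSC2, 1.36 for SPR1 and 1.26 for SPS22. SPS4, highest at 8 h in the course, thus had the largest ratio of the 10 at the earliest matched hour.

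At 7.75 h the ratio of induced to uninduced mRNA was 368 for SPS4 (197213 against 536 RPKM), 209 for SPO19 (79749 against 382) and 54.3 for SPR1 (15732 against 289.9). It was 41.3 for SPS22, 33.0 for SPS2, 22.1 for SPO77, 7.36 for SPO73, 5.40 for SPO75 and 2.45 for GSC2 (1676 against 685 RPKM). SPS100 had 2.44 RPKM with induction, which is 2 reads, and 37.8 without, 74 reads, a ratio of 0.0645 with a counting interval of 0.00766 to 0.241 (exact Clopper-Pearson, 95%, counting error only). The order at 6.5 h differed among the genes. SPO75 was highest at 6.5 h (618 RPKM) and lower at 7.75 h (446), SPO73 was highest at 7 h, and SPS4, SPR1 and SPS22 were still at 19.7, 20.2 and 21.4% of their 7.75 h value at 6.5 h. GSC2 had reached 85.5% of its highest value by then.

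With hour as a linear term, the test of induced against uninduced libraries called 0 of the 10 by limma. Of 5974 genes, 4 rose, 0.067% of them. At an unadjusted p under 0.05, 7 of the 10 passed, and the share of all genes at that level is not given. The largest estimates were those of SPS4 (5.47, SE 1.05, limma adjusted p = 0.177), SPO19 (4.52, SE 1.19) and SPO77 (3.08, SE 0.742). Without the first induced library, that of 5.75 h, 4 of the 10 were called, all higher, and 1.78% of all genes were called in either direction. With the induced libraries of 6.5 h and later and no hour term, 9 of 10 were higher with induction, where 10.7% of all genes were, and 1, SPS100, was lower, where 44.4% of all genes were and the median gene moved by -0.88. In that comparison the libraries of an arm differ in hour, so its SEs and p-values include change over hours and measure no spread between repeats. There SPS4 differed by 8.60 (SE 0.745, limma adjusted p = 4.78e-05), SPO19 by 7.82 (SE 0.583) and SPS2 by 6.12 (SE 0.765). GSC2 differed by 1.31 (SE 0.338, limma adjusted p = 0.0109) and SPS100 by -1.72 (SE 0.646, limma adjusted p = 0.0438). All induced libraries from 6.5 h on lay above all 4 uninduced ones for the 9 genes. The share of all genes separated in this way is not given. For SPS100 the groups overlapped, with the library of 2 reads among the induced ones.

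The change per hour was then compared between the arms, which share these libraries with the comparison above. It was higher with induction for 8 of 10 genes, where 7.28% of all genes were called so, and lower for 1, SPS100, where 57.3% of all genes were and the median gene stood at -0.82. The difference per hour on the log2 scale was 3.04 for SPO19 (SE 0.728, limma adjusted p = 0.0051), 2.80 for SPS22 (SE 0.463), 2.73 for SPR1 (SE 0.393), 2.64 for SPS4 (SE 0.648) and 2.43 for SPS2 (SE 0.683). Within the arms, SPS4 changed per hour by 3.47 with induction and 0.83 without, and SPO19 by 3.65 and 0.61. The corresponding values were 3.41 and 0.61 for SPS22, 3.03 and 0.30 for SPR1, and 3.44 and 1.01 for SPS2. By limma 0 of the 10 passed in the uninduced arm, 5 of them at an unadjusted p under 0.05. The share of all genes is not given for that arm, so neither count has a background. The median gene changed there by 0.03 per hour. The difference was 1.56 for SPO77, 1.30 for SPO73 and 0.97 for GSC2 (limma adjusted p = 0.0236). Without the induced library of 5.75 h, GSC2 had 0.72 (limma adjusted p = 0.119) and SPO77 0.60 (0.14). Neither gene passed without the uninduced library of 4 h or that of 7.75 h. GSC2 also did not pass without the induced library of 6 h, nor SPO77 without that of 7 h. SPO75, with lower values after 6.5 h, had 1.28 and did not pass (limma adjusted p = 0.106). SPS100 had -1.24 (SE 0.413, limma adjusted p = 0.0245), against the median gene at -0.82. With libraries centred on their medians, SPS100 had -0.52 and no longer passed (limma adjusted p = 0.321), while SPO75 had 2.00 and passed (0.038). Without the induced library of 7.75 h, which holds the 2 reads of SPS100, its difference was -0.21 (limma adjusted p = 0.722) and that of SPO75 3.10 (0.00675). Without the uninduced library of 7.75 h, 4 of the 10 passed, and 46.3% of all genes did in either direction, against 64.5% with every library.

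Related genes outside the set give a frame for these changes. Of 21 further genes of the spore wall and late spore formation, 18 rose in mRNA from 3 to 6 h and 0 fell, with a median change of 5.22, against 5.74 for the 10 genes and -0.81 for all genes. Their largest rises were those of SPS1 (7.37, SE 0.289) and SSP2, an activator of the spore wall kinase (7.14, SE 0.228). DIT1, which makes the dityrosine precursor and was chosen for mention after its values were seen, was also highest at 8 h but low at 4.5 h, with mRNA of 58.9 RPKM at that hour, 1067 at 6 h, 14832 at 8 h, then 7769 at 10 h. All 22 middle genes of the divisions and prospore membrane rose, with a median of 4.31, led by SMA2 (7.45, SE 0.450) and SPR3, a sporulation septin (6.18, SE 0.268). Of 16 glucan and cell wall genes from outside the sporulation lists, 2 rose and 4 fell, with a median of -0.50, where 9.47% of all genes rose and 49.1% fell. Most are known from growing cells, but FKS3, a relative of FKS1, had 9.17 mRNA RPKM in growth and 531 at 3 h, and YGP1 had 30.4 in growth and 17467 at 0 h. KRE6, of beta-1,6-glucan synthesis, rose by 1.99 (SE 0.182, limma adjusted p = 8.71e-05) and RHO1, the regulatory subunit of glucan synthase, by 0.82 (SE 0.221), while SCW4, a wall glucanase (-1.503, SE 0.238), and FKS3 (-1.48, SE 0.287) fell.

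The same lists after induction, by the difference per hour, had 14 of 21 spore wall and late genes up and 1 down, 19 of 22 middle genes up and 0 down, and 1 of the 16 glucan and cell wall genes up and 8 down. Of all genes 7.28% were up and 57.3% down with a median of -0.82, so the last list, with a median of -0.79, lies near the background. SPS1 (3.41, SE 0.496), SPR6 (3.36, SE 0.314) and SMA2 (3.71, SE 0.806) led, and SHC1, an activator of chitin synthase (-0.79, SE 0.261), was the spore wall gene that was lower, by about as much as the median gene. KRE6 was the one of the 16 that was higher (0.69, SE 0.244). In spores, 17 of the 21 spore wall genes and 19 of the 22 middle genes had at least 8-fold less mRNA than at 8 h. This was so for 7 of the 10 genes here and for 2.73% of all genes. From 8 to 10 h, 0 of either list and 1 of the 16 glucan and cell wall genes had at least 8-fold more mRNA. The share of all genes that did was 0.582%. By their highest mRNA state, 6 of the 10 genes had it at 6 h, as 12 of the 22 middle genes, 10 of the 21 spore wall genes and 4.54% of 6012 genes did.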

How the data were processed

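Ribosome footprints, mRNA and total RNA were measured by the submitters, and 51 libraries of 54 samples were used. The authors deposited RPKM per gene for footprints and mRNA. CASAVA, bcl2fastq 2.17 and Bowtie2 are named per the submitters' processing notes, and for the counting tool, genome build and strand nothing is given in the sources used here. The deposited total RNA values scale with gene length to a power of 2.52 to 2.97, so they were treated as a score and used only as ratios over states within a gene. In the tables, 7 per-sample columns matched no sample and were not used, and 1 line without a gene name was dropped. The values of 443 genes of the parallel set, SPS22, SPS100 and SPO73 among them, are listed in another order than the names. For 12 libraries they were read by position (r with the course 0.954 to 1, against 0.0319 to 0.182 by name) and in 2 by name. The 0 h mRNA column of that table equals the course in all 6679 values and was not used again.

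Reads were recovered from RPKM with 60 bases taken off the gene length, and 77.9 to 90.7% of low values came out whole (within 0.02, up to 100 reads). They served for depth, read shares, notes on low read numbers and 1 counting interval, and entered no fit.

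Groups were compared with limma 3.58.1 (R 4.3.3) on log2(RPKM + 1), a scale that understates changes of low genes, over genes whose mean reached 5 RPKM, with trended variance, Benjamini-Hochberg adjustment over all genes and a threshold of 0.05. The parallel fit held 11 libraries and 5967 genes with 5 residual degrees of freedom, and the lone 3 h mRNA library was assumed to vary like the other groups. The design had assumed 12 libraries. The induction fit held 9 libraries and 5974 genes. The fits were tested on simulated data with 200 changed genes. Course states have 1 library each, so genes there were counted at 8-fold without a test. Python 3.11.15, numpy 2.4.6, pandas 2.3.3 and matplotlib 3.10.9 were used.

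All 10 genes and NDT80 are named, with, for SPS4 and SPS100, the 3 genes of at least 50 RPKM most correlated with each, and from each list the genes with the largest called changes, at most 2 each way. The members and the lists were chosen with earlier results of these data known, so the counts are no independent evidence. The same-number libraries of the parallel groups did not deviate together (10 pairs of groups, r -0.113 to 0.236, 1 over 0.1), so no pairing was assumed. Alternatives were other pseudocounts, no filter, centring, a replicate block, no hour term, later induced libraries and leaving out each library. Values under the deposited row names were added after seeing the data.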

Additional observations from a re-analysis of the deposited data

Results flagged for a closer look

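Among the 5 induced libraries, the SPS100 value at 7.75 h (2.44 RPKM, 2 reads) stood far from the other 4, which lay between 17.4 and 26.0 RPKM. This was 1 of 20 sets of libraries examined, and chance marks about 1 in 20. The 5 libraries differ in hour, so they are not repeats of one condition, and whether hour or the library itself moves with the low value was not tested.

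SPO73 footprints changed more than its mRNA from 3 to 6 h, by 1.24 on the log2 scale (limma, tested as an interaction). The change per hour differed between induced and uninduced libraries for 9 of the 10 genes by the interaction in limma. It did so for 64.5% of 5974 genes, 7.28% higher and 57.3% lower. The differences on the log2 scale were 3.04 for SPO19, 2.80 for SPS22, 2.73 for SPR1, 2.64 for SPS4, 2.43 for SPS2, 1.56 for SPO77, 1.30 for SPO73 and 0.97 for GSC2, and -1.24 for SPS100. The median gene stood at -0.82, and SPS100 no longer passed with libraries centred (limma adjusted p = 0.321).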

How the results depend on the processing

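Of 1100 values of single genes under alternatives, 1005 kept direction and side of the threshold, 27 newly passed, 56 no longer passed and 12 changed sign. For mRNA from 1.5 to 3 h, the count of 3 became 5 with a pseudocount of 5 and ranged from 1 to 5 with 1 replicate left out. For footprints over that interval the count of 7 ranged from 3 to 7. The translation efficiency count of 1 became 0 with libraries centred, 0 with the replicate block and 0 under the deposited row names, and ranged from 0 to 1 with 1 replicate left out. The replicate block also gave 2 for mRNA from 1.5 to 3 h, and the numbers do not pair these libraries. For induction, the count of 0 became 10 with the induced libraries of 6.5 h and later, where 55.1% of all genes were called. It ranged from 0 to 4 with 1 library left out, and 1.78% of all genes were called with the count of 4. Each library of the induction set is the only one of its arm and hour, so leaving it out also changes the hours covered. The count of 9 for the change per hour ranged from 4, with 46.3% of all genes called, to 10, with 68.3%. Signs changed with libraries centred for SPO73 (0.076, footprints 3 h against 1.5 h) and SPS100 (0.20, footprints 6 h against 3 h). Under the deposited row names they changed for SPS100 mRNA (0.068) and footprints (-0.50) at 3 h against 1.5 h, SPS22 mRNA at 6 h against 3 h (-0.17) and footprints at 3 h against 1.5 h (-0.013), and the translation efficiency of SPS100 (-1.88) and SPO73 (-0.29), where each name carries another gene's values. With 1 library left out, the SPS100 footprint change at 3 h against 1.5 h ranged from -0.18 to 0.70. At 6 h against 3 h it ranged from -0.18 to 0.081, and the induction estimate of SPS100 from -1.12 to 0.068. Except for the row names, the cause was not tested. Depth limits SPO75 and SPO77 before 3 h and SPS100 in the last induced library, each at a few reads. The interval of the SPS100 ratio covers counting error only, and the limma intervals the spread between libraries, which in the induction set differ in hour.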
